A study of Mus musculus with 15 samples.

Results

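Binding of PU.1 was described at the loci of 6 receptor genes of macrophages: Tlr4, Tlr2, Cd14, Fcgr2b, Fcgr3 and Fcgr4. The members were the ChIP peaks that overlap 4 windows of mouse build mm9: chr4:66460000-66530000 for Tlr4, chr3:83620000-83665000 for Tlr2, chr18:36865000-36905000 for Cd14 and chr1:172870000-173010000 for the 3 Fc receptor genes. The windows span 295 kb together and were set around these genes by coordinates. Gene bodies were not placed in them, so a peak belongs to a window and not to a gene. By order in the GRCm38.p6 gene table, the neighbouring protein-coding genes are Trim32 and Brinp1 for Tlr4, and Sfrp2 and Tmem131l for Tlr2. They are E230025N22Rik and Tmco6 for Cd14, and Gm39701 and Cfap126 for the Fc receptor cluster. Whether these neighbours lie inside the windows was not measured. Of the 30026 and 36759 peaks of the control lists (replicates 1 and 2), 20 and 28 fell in the windows. Of the 15122 and 27733 peaks of the shPU.1 lists, 16 and 19 did, and of the 57512 peaks of the in vitro list 12 did.

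The study mapped PU.1 by chromatin immunoprecipitation and sequencing (ChIP-seq) with an antibody raised against the N-terminus of the protein. Primary bone marrow-derived macrophages of C57BL/6 mice, on day 7 of differentiation, carried a retroviral vector with a doxycycline-inducible hairpin, either against PU.1 (shPU.1, 2 libraries) or against Renilla (the control, named empty in the sample titles, 2 libraries). The protocol given for both groups selects infected cells with puromycin at 3 µg/ml from day 3 and adds doxycycline at 0.5 µg/ml on day 5 for 48 hours, and PU.1 was targeted with 1 hairpin. The in vitro list sets PU.1 ChIP from nucleosomes built on purified macrophage DNA and exposed to IgG-depleted nuclear extract against the same ChIP with PU.1-depleted extract. The 9 micrococcal nuclease samples, of 15 samples in all, were not analysed here. The labels give neither the age and number of the mice nor whether replicates came from separate cultures, so the spread between replicates may be technical.

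PU.1 is an ETS-family transcription factor of myeloid and B cells, whose DNA-binding domain contacts a GGAA core within a purine-rich site. Toll-like receptor 4 senses bacterial lipopolysaccharide, which Cd14 hands on to it, and Toll-like receptor 2 senses bacterial lipoproteins. The Fc gamma receptors bind the constant part of IgG antibodies: Fcgr2b is the inhibitory receptor, while Fcgr3 and Fcgr4 activate the cell through a shared signalling chain.

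The RefSeq promoter table (build GRCm38.p6) held entries for Tlr2 (chr3:83841559-83841858, minus strand), Fcgr2b (chr1:170976022-170976321, minus strand), Fcgr3 (chr1:171059354-171059653, minus strand) and Fcgr4 (chr1:171018676-171018975, plus strand). These 4 are printed to show where letters like a PU.1 site stand beside the annotated starts, and a match is a description, not a measured binding site. Each runs 5′ to 3′ on the gene's strand from 250 bases before to 50 bases after the annotated start, and capitals mark GAGGAA or GGAAGT on either strand, which read TTCCTC or ACTTCC when the match is on the opposite strand.
Tlr2: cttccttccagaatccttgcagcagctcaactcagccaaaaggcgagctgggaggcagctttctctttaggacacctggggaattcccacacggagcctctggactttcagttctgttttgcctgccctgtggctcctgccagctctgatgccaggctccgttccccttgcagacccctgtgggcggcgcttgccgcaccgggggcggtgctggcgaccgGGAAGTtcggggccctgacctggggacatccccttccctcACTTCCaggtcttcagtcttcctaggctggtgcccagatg
Fcgr2b: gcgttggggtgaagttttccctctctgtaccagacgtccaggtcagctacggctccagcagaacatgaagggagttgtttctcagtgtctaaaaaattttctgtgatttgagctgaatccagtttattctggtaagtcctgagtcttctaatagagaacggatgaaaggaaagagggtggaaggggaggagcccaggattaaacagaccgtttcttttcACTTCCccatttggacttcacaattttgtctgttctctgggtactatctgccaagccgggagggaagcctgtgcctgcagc
Fcgr3: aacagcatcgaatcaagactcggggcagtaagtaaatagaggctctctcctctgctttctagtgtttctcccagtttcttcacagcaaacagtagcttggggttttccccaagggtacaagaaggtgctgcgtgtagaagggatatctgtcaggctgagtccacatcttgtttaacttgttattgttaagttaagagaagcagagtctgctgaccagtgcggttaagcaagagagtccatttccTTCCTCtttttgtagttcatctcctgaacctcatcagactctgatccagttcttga
Fcgr4: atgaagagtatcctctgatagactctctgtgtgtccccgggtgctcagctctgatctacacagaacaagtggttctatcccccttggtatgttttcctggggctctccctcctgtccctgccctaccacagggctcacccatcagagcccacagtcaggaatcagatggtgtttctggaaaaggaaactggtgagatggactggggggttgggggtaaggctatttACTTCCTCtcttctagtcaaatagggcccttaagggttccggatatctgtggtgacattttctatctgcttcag
Fcgr4 held the joined motif GAGGAAGT on the opposite strand, with the match beginning 24 bases before the annotated start, and this motif contains both shorter ones. Fcgr2b held GGAAGT on the opposite strand, 31 bases before the start. Fcgr3 held GAGGAA on the opposite strand, 6 bases before the start (a further Fcgr3 entry, shifted by 9 bases, held the same match). Tlr2 held GGAAGT on the gene's strand 30 bases before the start and again on the opposite strand 10 bases after it. Of the 32851 promoter entries in the table, 28.3% held GAGGAA, 23.8% held GGAAGT, 3.20% held GAGGAAGT and 96.0% held the bare core GGAA, so matches to the shorter motifs are common. The peaks are on mm9 and these entries on GRCm38.p6, and no positions were carried from one build to the other: which peak covers which promoter was not measured. Tlr4 and Cd14 are named only.

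Across whole lists, peaks were wider in both replicate 2 lists (median 892 bp in control and 1076 bp in shPU.1) than in both replicate 1 lists (435 bp and 448 bp). Sequencing depth is unknown for every list, and none of them measures the PU.1 level. In the pooled cells of a ChIP, fewer bound cells and weaker binding per cell cannot be told apart.

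The receptor windows held PU.1 peaks in every list, and most sites seen in both control libraries were seen again with the PU.1 hairpin. Peaks in the windows averaged 24 ± 5.66 per control library (SD, n = 2) and 17.5 ± 2.12 per library with the hairpin (SD, n = 2), a log2 ratio of -0.46 (exact two-sided permutation p = 0.33, the smallest that 2 against 2 libraries allow). Both shPU.1 lists (16 and 19 peaks) lay below both control lists (20 and 28). The whole lists had the same order and a log2 ratio of -0.64, so the fall in the windows was not particular to them. With every in vivo list limited to its 15122 highest peaks, which makes the whole lists equal by construction, the log2 ratio in the windows was 0.42, in the opposite direction. Density in the windows was 67.8 and 94.9 peaks per Mb in the controls and 54.2 and 64.4 with the hairpin, against 11.4, 13.9, 5.73 and 10.5 peaks per Mb for the 4 whole lists in the same order. In the in vitro list the windows held 40.7 peaks per Mb and the whole list 21.8. The windows were set around receptor genes of macrophages and chosen with earlier results of these data known. The density contrast is therefore not that of an unselected part of the genome.

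**Figure D1:**
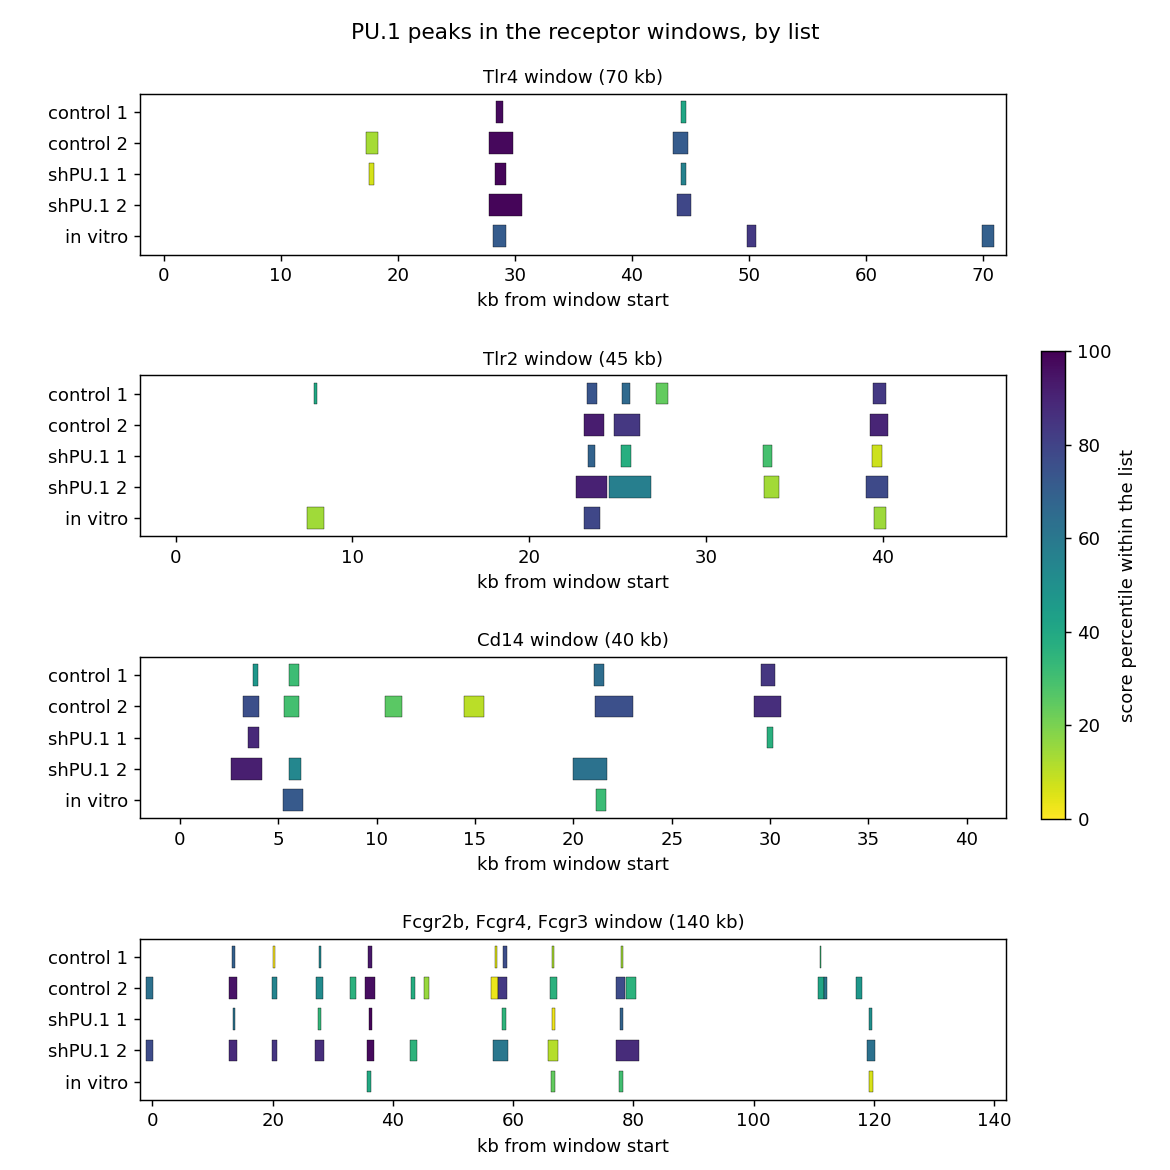
Peaks of the 5 lists in the 4 windows. The horizontal axis is the distance from the window's start in kb, each bar is 1 peak drawn to its width, rows are lists, and colour is the percentile of the peak's score within its own list; the darkest stacks are the Tlr4 site near 29 kb and the Fc receptor site near 36 kb.

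Peaks of the 4 in vivo lists that share at least 1 bp were merged into regions, which gave 30 regions in the windows and 53107 in the genome. Regions with peaks from each of the control libraries are called control regions here, and 18 of the 21680 in the genome lay in the windows. A control region was called kept where both shPU.1 libraries also had a peak, partial where 1 had, and lost where neither had. Of the 18, 13 regions were kept (72.2%, exact Clopper-Pearson 95% interval 46.5 to 90.3), 4 were partial (22.2%, 6.41 to 47.6) and 1 was lost (5.56%, 0.141 to 27.3). Over all 21680 control regions 40.0% were kept, 31.0% partial and 29.1% lost. By single library, 14 of the 18 held a peak of shPU.1 replicate 1, beside 43.4% of all control regions, and 16 held one of shPU.1 replicate 2, beside 67.5%. The intervals cover the counting of regions only, since regions are not replicates of a condition.

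On the mean of both control libraries, the ranks of these regions were near those of all control regions. Each peak's score, the caller's measure of its strength, was turned into a percentile within its own list, with 100 as the highest, and a region took its highest peak. The mean of both control percentiles had a median of 65.8 over the 18 regions (range 24.4 to 97.8) and of 61.5 over all control regions, and 9 of the 18 lay above the latter. By single library the median was 59.4 in control replicate 1, beside 60.9 over all control regions. In control replicate 2 the members ranked higher, with a median of 76.6 beside 67.6. The median was 74.8 in the 13 kept regions and 50.4 in the 4 partial ones, beside 79.2 and 56.5 over all kept and all partial regions, and it was 36.8 in the lost region.

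**Figure D2:**
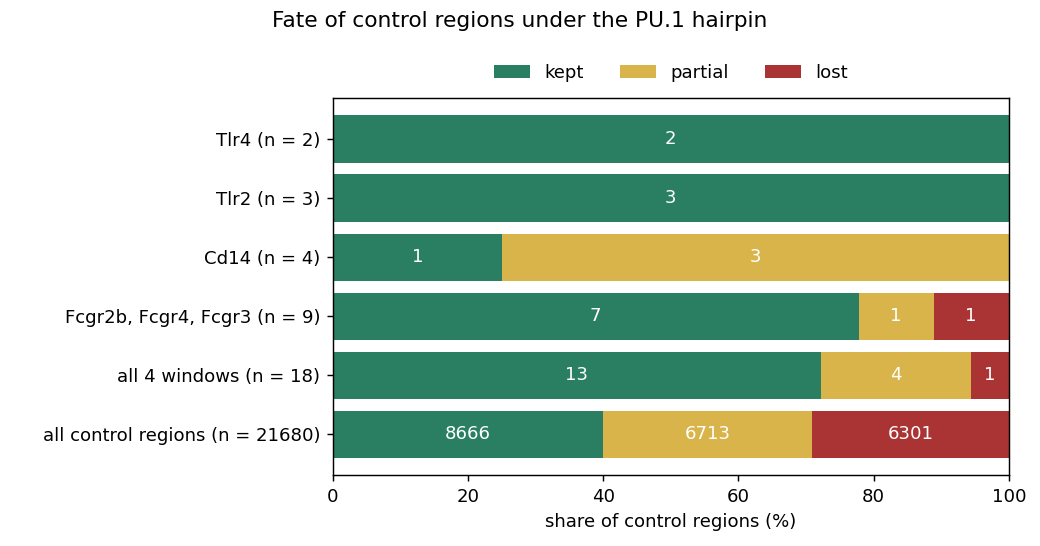
Share of control regions kept, partial or lost with the PU.1 hairpin, as a percentage, for each window, the 4 windows together and the whole genome, with counts of regions in the bars. All control regions of the Tlr4 and Tlr2 windows were kept, and 3 of 4 in the Cd14 window were partial.

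The kept share depended on the score threshold, the list lengths and the libraries used. With every in vivo list limited to 15122 peaks, 7 of 9 control regions (77.8%) were kept and 0 were lost, beside 58.7% kept and 19.2% lost of all 10354 control regions at that length, a smaller gap than in the full lists. At a score of at least 100 in every list, 10 control regions remained and 3 of them (30.0%) were kept, beside 32.3% of all control regions at that threshold. So at that threshold the members' share was at the background. These 3 were the highest-ranked regions of the Tlr4 and Fc receptor windows and the Tlr2 region at chr3:83642675-83644404. The threshold was not equally strict in every list. Peaks with scores of 100.9 and 100.1 stood at percentiles 54.0 and 41.3 of control replicates 1 and 2. Peaks with scores of 101.6 and 104.6 stood at percentiles 68.4 and 53.8 of shPU.1 replicates 1 and 2. Leaving out control replicate 1 gave a kept share of 50.0% and a lost share of 26.9% (7 of 26 regions), and leaving out control replicate 2 gave 65.0% and 15.0%, beside kept shares of 26.9% and 30.9% and lost shares of 43.7% and 42.8% over all such regions. With shPU.1 replicate 2 as the only hairpin library the shares were 88.9% and 11.1%, and with shPU.1 replicate 1 as the only one 73.7% and 26.3%, beside 67.5% and 32.5%, and 43.1% and 56.9%, over all such regions. The region at the edge of the Fc receptor window reached only 177 bp into it, with its control replicate 1 and shPU.1 replicate 1 peaks outside, and without it 12 of 17 control regions (70.6%) were kept.

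Tlr4 had the highest-ranked site of the 4 windows. Its region at chr4:66487782-66490614 had control scores of 555.2 and 1011.9 and shPU.1 scores of 446.8 and 1389.8. These values stood at percentiles 97.5 and 98.0 in the controls and 98.7 and 98.6 with the hairpin, so the site was near the top of every in vivo list. When peaks were cut down to their central 200 bp, this site was not among the 7 kept regions of the windows. Its shPU.1 replicate 2 peak was 2833 bp wide and centred 29.198 kb from the window's start. The peaks of the other in vivo lists centred between 28.694 and 28.796 kb, so their central 200 bp did not meet it. The other Tlr4 control region, chr4:66503556-66505083, scored 82.2 and 212.3 in the controls and 82.7 and 244.5 with the hairpin, at percentiles 40.6, 71.3, 55.8 and 78.6. Both groups overlapped there, and within each group the replicate 2 list had the higher rank. A weak region at chr4:66477296-66478314 had a peak in control replicate 2 (score 61.5) and in shPU.1 replicate 1 (53.0) only.

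Tlr2 had 3 control regions, all kept. The region at chr3:83642675-83644404 scored 157.7 and 544.2 in the controls and 101.6 and 515.9 with the hairpin, at percentiles 73.6, 92.05, 68.4 and 90.9, and the groups overlapped. Its neighbour at chr3:83644496-83646908 scored 128.4 and 347.4 against 67.0 and 114.2, at percentiles 65.6 and 83.9 against 37.1 and 57.3, so both shPU.1 ranks lay below both control ranks. With lists of equal length it was still kept, but the groups overlapped (31.8 and 61.0 against 37.1 and 21.7). The region at chr3:83659039-83660332 scored 216.5 and 471.0 against 53.5 and 233.3. Its percentile was 83.5 and 89.8 in the controls, 7.69 in the first shPU.1 library and 77.6 in the other, so in the former it was close to the threshold of 50 at which the lists end. A further 2 regions of the Tlr2 window were found in control replicate 1 alone, with scores of 81.3 and 65.8.

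Of the 4 control regions of the Cd14 window, 1 was kept and 3 were partial, beside 40.0% kept and 31.0% partial of all control regions. In each of the other windows most control regions were kept. With windows widened by 20 kb, further kept regions appeared on both sides of the Cd14 window. The contrast therefore depended in part on where this window was cut. Over all widened windows 16 of 22 control regions were kept and 5 were partial. The difference between windows was not tested. The kept region at chr18:36867610-36869202 scored 90.0 and 248.7 in the controls and 181.9 and 539.6 with the hairpin, at percentiles 47.0 and 75.8 against 88.5 and 91.4, and both shPU.1 ranks lay above both control ranks. With lists of equal length it had no peak in control replicate 1, so it was no longer a control region and was not compared. The highest control ranks of the window, 84.1 and 87.0, belonged to chr18:36894186-36895545 (scores 222.3 and 402.1), which had a peak of score 66.6 in the first shPU.1 library and none in the other. The other 2 partial regions, chr18:36870295-36871181 and chr18:36884995-36888053, had no peak in shPU.1 replicate 1. Their scores in the other shPU.1 list were 104.6 and 132.9 (percentiles 53.8 and 62.4). Control scores were 71.8 and 80.2 (percentiles 31.3 and 29.8) for the former and 125.3 and 245.8 (percentiles 64.8 and 75.6) for the latter. With shPU.1 replicate 2 as the only hairpin library, these 2 regions were kept and chr18:36894186-36895545 was lost. With shPU.1 replicate 1 as the only one, chr18:36894186-36895545 was kept and these 2 were lost. Among all 6713 partial regions of the genome, 5964 were found in shPU.1 replicate 2 only and 749 in shPU.1 replicate 1 only. Another 2 regions of the window were in control replicate 2 alone (scores 74.5 and 58.7).

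The Fc receptor window, set around the inhibitory receptor gene Fcgr2b and the activating receptor genes Fcgr4 and Fcgr3, had 9 control regions, of which 7 were kept, 1 was partial and 1 was lost. Its highest site, chr1:172905407-172907027, scored 369.9 and 778.5 in the controls and 442.0 and 1045.4 with the hairpin, at percentiles 93.7 and 96.2 against 98.6 and 97.3. Both shPU.1 ranks lay above both control ranks, as at the highest Tlr4 site. The region at chr1:172882740-172884109 scored 142.3 and 683.4 against 90.3 and 415.6, at percentiles 69.8, 94.9, 62 and 88.1, with overlapping groups.

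Several Fc receptor regions ranked differently in the 2 replicates of a group. The region at chr1:172947094-172950878 stood at percentile 14.1 in control replicate 1 and 77.3 in control replicate 2, and at 68.5 and 87.9 with the hairpin. The region at chr1:172897027-172898529 scored 100.9 and 127.1 in the controls, against 64.8 and 385.3 with the hairpin. Its percentiles were 54.0 and 52.2 against 33.8 and 86.9. In contrast, both shPU.1 ranks lay below both control ranks at chr1:172926369-172929058 (35.1 and 60.5 against 76.2 and 83.3) and at the weak region chr1:172935875-172937439 (2.47 and 11.2 against 12.7 and 36.1). With lists of equal length the former stayed separated, and the latter had a peak in shPU.1 replicate 1 only. The partial region at chr1:172889843-172890762 had scores of 50.2 and 135.8 in the controls (percentiles 0.498 and 55.0). It had no peak in shPU.1 replicate 1 and a score of 334.0 (percentile 84.6) in the other shPU.1 list. The lost region at chr1:172980659-172981642 was weak in both controls, with scores of 72.5 and 100.1. The kept region at the window's edge, chr1:172868939-172870176, scored 63.0 and 167.9 against 74.4 and 229.1, at percentiles 20.2 and 63.3 against 47.5 and 77.2. Another 5 regions had no peak in control replicate 1: 4 were in control replicate 2 alone and 1 in both replicate 2 lists. The Fc gamma receptor genes are related in sequence, and the sources used here do not say how reads with several matches were treated.

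**Figure D3:**
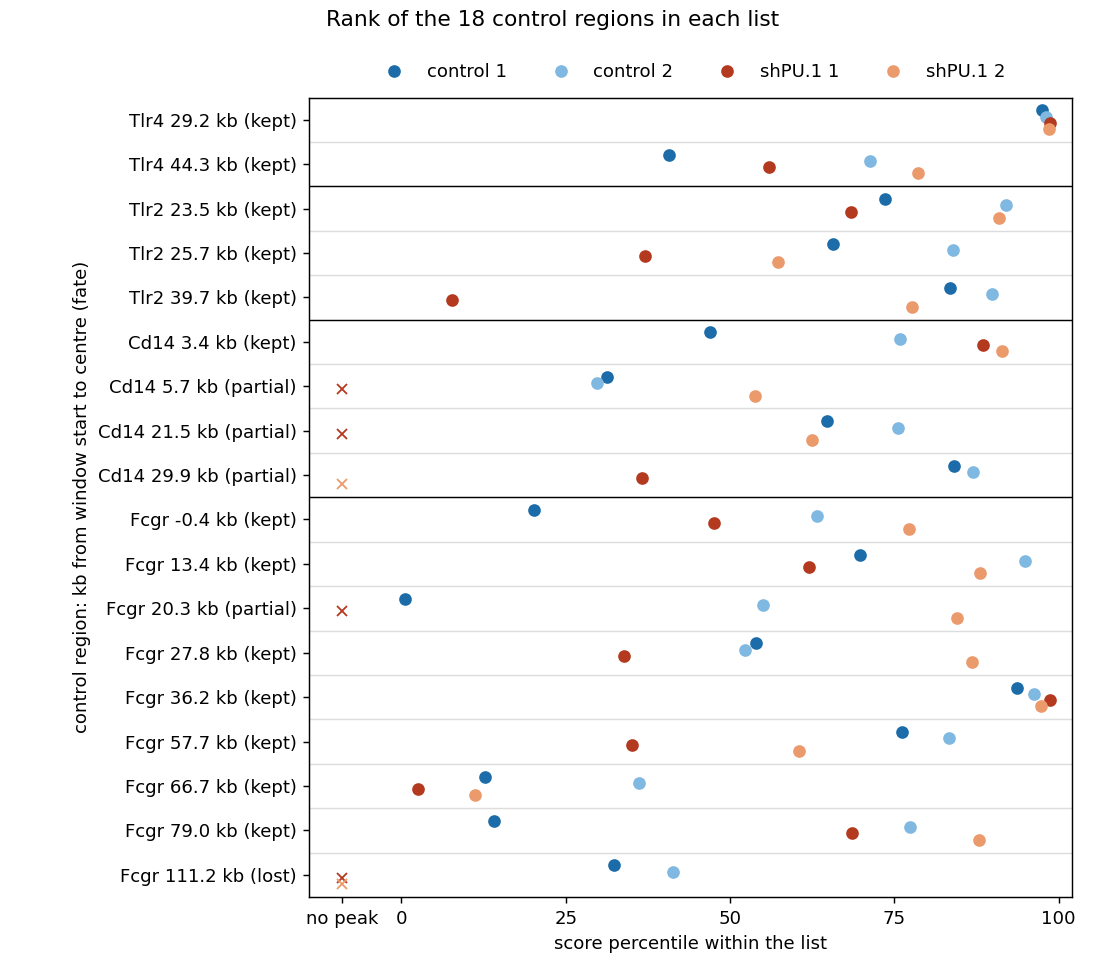
Score percentile (horizontal axis, 0 to 100 within each list) of the 18 control regions, 1 row per region, named by window, distance of its centre from the window's start in kb and fate; points are the 4 in vivo libraries and a cross marks a list without a peak. The 4 points of the highest Tlr4 region and of the highest Fc receptor region all lie above 93, while those of the Tlr2 region at 39.7 kb run from 7.69 to 89.8.

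Ranks within the lists did not move in a common direction with the hairpin. Over the 13 kept regions the mean percentile was 57.6 and 78.0 in the control libraries and 54.2 and 77.2 in the shPU.1 libraries. The group means were 67.8 ± 14.5 (SD, n = 2) and 65.7 ± 16.3 (SD, n = 2), a difference of -2.13 (exact two-sided permutation p = 0.67). Over all 8666 kept regions the difference was -5.05 (exact permutation p = 0.67). Both shPU.1 percentiles lay above both control ones in 3 of the 13 regions and below in 4 of the 13, beside 16.2% and 26.3% of all kept regions. Percentiles of lists of different lengths are not on a common scale. With every list limited to 15122 peaks, 7 member regions were kept, of which 2 were separated upwards (the highest Tlr4 and Fc receptor sites) and 2 downwards (the Tlr2 region at chr3:83659039-83660332 and an Fc receptor region at chr1:172926657-172929058), beside 32.8% and 19.3% of all kept regions. Leaving out control replicate 1 changed the difference to -12.4 and leaving out control replicate 2 to 8.09. It was 12.1 with shPU.1 replicate 1 omitted and -16.2 with shPU.1 replicate 2 omitted, so its direction changed with the libraries used.

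Of the 30 regions of the windows, 2 were gained, with peaks in each shPU.1 list but none from the controls, beside 0.510% of all 53107 regions (271 regions). Only the region in the Tlr2 window ranked below the middle of both shPU.1 lists. In the Fc receptor window, chr1:172988856-172990191 scored 76.7 and 134.1 in the shPU.1 lists (percentiles 50.2 and 62.7). It held an in vitro peak of score 53.4. The nearest control peak, of score 112.7 in control replicate 2, lay 871 bp away. In the Tlr2 window, chr3:83653222-83654117 scored 63.0 and 55.8 (percentiles 29.4 and 13.7), held no in vitro peak and lay 5190 bp from the nearest control peak. At a score of at least 100 neither was gained, and with lists of equal length the Fc receptor region alone was.

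Some of the receptor sites also held a PU.1 peak on the DNA assembled in vitro. Whether PU.1 lay on nucleosomes or between them there was not measured. An in vitro peak overlapped 8 of the 18 control regions (44.4%, exact 95% interval 21.5 to 69.2), beside 27.6% of all control regions, and 6 of the 13 kept ones (46.2%, 19.2 to 74.9), beside 39.5% of all kept regions. It also overlapped 2 of the 4 partial regions, both in the Cd14 window, and not the lost one, beside 25.7% of all partial and 13.3% of all lost regions. With in vitro peaks of a score of at least 100 only, 3 of the 18 (16.7%) were overlapped, beside 18.9% of all control regions, and with that threshold on every list 2 of 10 (20.0%) were, beside 21.5%. The members' share was above that of all control regions in the full lists and not at either threshold.

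At the highest Tlr4 site the in vitro peak scored 170.8 (percentile 71.4 of the in vitro list), and at the highest Fc receptor site 86.2 (percentile 39.5). The highest in vitro peak of the 4 windows, chr4:66509850-66510649 near Tlr4, scored 260.6 (percentile 83.4) and overlapped no peak of any library in cells. A second Tlr4 peak without a counterpart in cells, chr4:66529896-66530977, scored 162.5 at the window's edge. At Tlr2 the in vitro peaks on kept regions scored 215.7 at chr3:83643110-83643998 and 59.3 at chr3:83659499-83660188, and another, of score 59.1, lay on a region of control replicate 1 alone. At Cd14 the scores were 174.1 and 76.2, both on partial regions, and the kept Cd14 region had no in vitro peak. All 4 in vitro peaks of the Fc receptor window were below the middle of their list, from percentile 5.98 to 39.5. Of the 12 in vitro peaks, 8 lay on control regions, 2 on other regions and 2 on none. The in vitro list has no replicate.

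**Figure D4:**
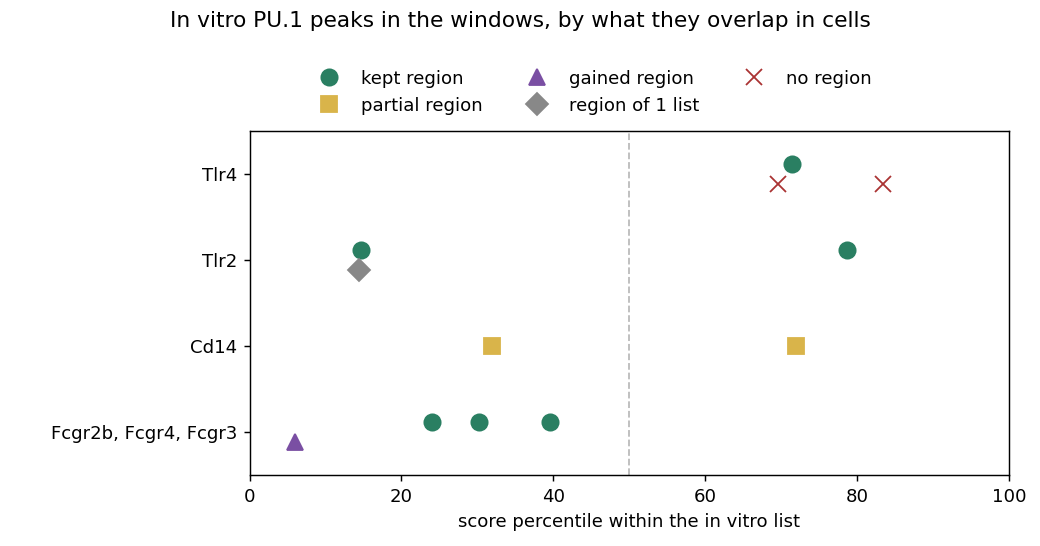
Score percentile within the in vitro list (horizontal axis, dashed line at 50) of the 12 in vitro peaks, by window, with marker shape and colour giving the kind of region they overlap in cells. The Tlr4 window holds 2 peaks without a region, including the highest of the 12, and the Fc receptor peaks all lie to the left of the line.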

How the data were processed

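PU.1 ChIP-seq peak lists of 4 macrophage libraries and 1 in vitro comparison were used. The submitters' processing notes name Bowtie 0.12.7, MACS 1.4, bedtools and mm9 but give no settings that were used here. Each deposited list gives each peak's position and the authors' peak score, whose scale is not stated, so it was used only to rank and filter peaks within a list. In vivo peaks were called per library against input and in vitro ones for IgG-depleted against PU.1-depleted extract, per the deposited files' names. The lowest score was 50 to 50.01 in each list. No filter was applied. Peaks sharing 1 bp were merged, and groups were compared with exact permutation tests over libraries. Alternatives were a minimum score, trimmed peaks, lists of equal length, wider windows, another in vitro overlap, a replicate block and leaving out each library. Regions, classes and percentiles were computed in Python 3.11.15 with pandas 2.3.3, numpy 2.4.6 and scipy 1.17.1. Coordinates count from 1. The code was tested on lists with known classes. All 6 genes matched the RefSeq table by symbol. The members, windows and tests were chosen with earlier results of these data known; every control region in the windows was described. Other genes of the Toll-like and Fc receptor pathways were not measured, since no mm9 annotation was used.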

Additional observations from a re-analysis of the deposited data

How the results depend on the processing

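Depth is unknown. With 2 libraries a group no alternative could pass a test's threshold; for these results only the direction, or the counting interval of the share, was followed. The log2 ratio of peaks in the windows kept its sign in 8 of 9 alternatives and reversed to 0.42 with lists of equal length. The percentile difference over kept regions kept its sign in 8 of 11. It was 0.11 with windows widened by 20 kb and ran from -16.2 to 12.1 with 1 library left out, where it reversed in 2 of 4 cases. The kept share was 30.0% at a score of at least 100 (all control regions: 32.3%) and 50.0% to 88.9% with 1 library left out. With trimmed peaks 7 of 14 control regions (50.0%; all: 34.8%) were kept, and with lists of equal length 77.8% (all: 58.7%). The lost share was 0% of 9 regions with lists of equal length (all: 19.2%). In vitro peaks overlapped 20.0% of control regions at a score of at least 100 (all: 21.5%), and 16.7% where that applied to the in vitro list alone (all: 18.9%), so the excess over all control regions was absent at both. The score threshold left 0 gained regions, trimming peaks to 200 bp left 1 and lists of equal length left 1. With the replicate number as a block, the log2 ratio of peaks was -0.44 and the percentile difference -2.13. Nothing in the labels ties equal replicate numbers to a mouse or day, so the numbers were not taken to pair the libraries. Over all 8666 kept regions the differences between numbers had a correlation of 0.105 between the groups. Merging control peaks alone, regions wholly inside the windows and the count of gained regions were chosen after seeing the data.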
